A study of Mus musculus with 6 samples.

Results

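Stops of reverse transcriptase at RNA G-quadruplex (rG4) motifs were compared between K+ and Li+ in the 2 in vitro tables of a mouse embryonic stem cell line. A site was a member where both cations had 20 or more reads over it in both tables, which held for 3266 of the 5538 sites listed (59.0%), in 1601 gene entries. Each of the 2 tables belongs to 1 of the 2 day 7 samples, and each holds 1 K+ and 1 Li+ library, called replicate 1 and replicate 2. The cells were a clonal embryonic stem cell line from a 129S1/CastEiJ by 129S1 cross that carries TsixTST on 1 allele. Their genotype label is WT, and all samples of the series share this background. They were grown on feeders with leukemia inhibitory factor (LIF), then depleted of feeders and differentiated as embryoid bodies without LIF, in suspension up to day 3 and attached from then to day 7. In-cell tables exist for day 0, day 3 and day 7, with 2 samples each. Those cells were treated with dimethyl sulfate (DMS) per the treatment protocol, although the treatment field itself reads None, and chromatin-bound poly A+ RNA was fragmented and size-selected. How the in vitro RNA was prepared is not described in the labels, so its identity rests on the name of the tables and on the design text, and a single clonal line limits how far the values reach.

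A G-quadruplex is a stack of guanine quartets held by a monovalent cation in its centre. K+ fits that centre and stabilises the stack, while Li+ does not, so a reverse transcriptase that halts just 3′ of the motif in K+ and reads through in Li+ has met a fold that depends on the cation. Motifs with short loops between their guanine runs are known to form the most stable folds. A stop that is also frequent in Li+ shows this dependence only so far as its share is still higher in K+. DMS methylates guanines at a position that is buried in a folded quartet and open in an unfolded one, which is why DMS treatment in cells before refolding in the test tube reads the fold in the cell.

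The stop share is the number of reads that end at the site as a percentage of all reads over it. All 5538 sites had a higher share in K+ than in Li+ in both tables, with a lowest ratio of 1.1 in each, so the sites were chosen on this contrast. The size of the K+ over Li+ difference is therefore given as a description. The Li+ share is part of this contrast, since it lies below the K+ share at each listed site. A high Li+ share is thus possible only where the K+ share is higher still. Li+ shares by motif are therefore also given as a description.

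The motifs below span the range from sites that stopped as a rule in both cations to sites that stopped in K+ alone. Each is the deposited sequence, 5′ to 3′ in the sense of the transcript, from up to 24 bases that end at the last stop base to 5 bases past it. Runs of 2 or more guanines are in capitals. The first 6 had high shares in both cations and short loops.
Midn, chr10:80157935-80157956, plus strand: GGGGtGGGtGGGtGGGaaGGGG
Xist, chrX:103460418-103460446, minus strand: GGGtGGGtGGGtGGGtGGGtGGGtGGttg
Tecr, chr8:83572983-83573005, minus strand: GGGGGtGGGaGGGaGGGtGGaGG
Hnrnpa0, chr13:58127111-58127131, minus strand: GGGGGGGcGGGtGGGcGGGcg
Smg5, chr3:88361493-88361515, plus strand: GGGtGGGtGGGGctGGGagtttg
Lin28a, chr4:134003563-134003586, minus strand: GGGGaGGGtGGGaaaGGGtgtact
The next 4 also had high shares in both cations, with few or scattered guanine runs.
Ankrd11, chr8:122900085-122900113, minus strand: agcctgttgcccGGaagtccGGGctgttg
Nop53, chr7:15939176-15939204, minus strand: cgtGGGatcaaGGcccaGGtGGcccgaag
Psmd8, chr7:29174430-29174458, minus strand: ttcccagttgtcattgctctGGGttttaa
Gm15564, chr16:35981740-35981768, minus strand: cactaataGGGaacgtgagctGGGtttag
The last 4 stopped often in K+ and seldom or never in Li+.
Rab5c, chr11:100715931-100715959, minus strand: caccactGGGGGcaGGGGaaGGGtccatc
Septin9, chr11:117360738-117360766, plus strand: GGGtGGGcGGGGctaagcctGGGcttgcc
Gigyf2, chr1:87450697-87450720, plus strand: GGGGGGGtGGGGaagaGGGatagt
Mcm3, chr1:20813006-20813028, minus strand: GGGaGGGGtGGagcGGGaacttg
Coordinates are 1-based on GRCm38.p6 (mm10) and were worked out from the deposited stop position and the mark of the stop in the deposited sequence. Of 148 sites that lie within a RefSeq promoter sequence of that build, 145 matched at the coordinates worked out in this way and 0 at a shift of 1 to 3 bases.

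The reads over members numbered 1848384 and 2072741 in K+ and 2018681 and 893800 in Li+ (replicate 1 and replicate 2, as in all pairs of values below). Stops numbered 693393 and 800161 in K+ and 273148 and 119988 in Li+. The median coverage of a member was 154 and 215 reads in K+ but 94 and 45 in Li+, so Li+ shares, those of replicate 2 above all, are the least precise values here. The 8 ribosomal and mitochondrial members held 39.1% and 29.0% of the K+ reads and 66.5% and 66.1% of the Li+ reads, and they count as 8 sites in every median. They are the sites of CT010467.1, a ribosomal RNA copy described below, and of the mitochondrial chromosome. The deeply read Gm15564 was not counted among them. Of the stem cell markers, Pou5f1, Sox2, Lin28a and Zfp57 were covered in vitro, and Nanog and Utf1 have no listed site. Krt8, Krt18, Fgf8, Sox11 and Nnat, genes of differentiating cells, were also covered. They are listed at 0 in both day 0 K+ libraries, which may stand for a few reads. H19, a marker of the same kind, was covered too but had 18 reads in day 0 K+ replicate 1. T was at 0 in both day 0 K+ libraries and had only 17 and 10 reads in Li+ in vitro. Of the feeder fibroblast markers, Col1a1 and Fn1 were covered, at 90 and 287 reads in K+ replicate 1, and Vim, Thy1 and S100a4 have no site in these tables. The level of RNA is not read from these tables, since each lists rG4 sites alone.

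Across all members the median stop share was 43.0% and 44.8% in K+ and 5.77% and 5.2% in Li+. The middle range of K+ shares ran from 30.7% to 59.0% in replicate 1 and from 31.8% to 60.7% in replicate 2, with extremes of 7.74% and 98.0%, and of 5.98% and 98.5%. In Li+ the quartiles were 3.28% and 9.82% in replicate 1 and 2.78% and 9.52% in replicate 2, and the highest shares were 78.8% and 78.5%. Stops in Li+ were thus rare at most sites but not at all of them. The K+ and Li+ values did not overlap at 3262 members, where the lower K+ share lay above the higher Li+ share. In limma on the log2 odds of a stop, 3248 of 3266 members (99.4% of all tested) had K+ above Li+ at a Benjamini-Hochberg adjusted p under 0.05, which only restates the choice of sites. The median log2 ratio of the shares was 2.67 and 2.73, and 2.77 over the mean of both replicates.

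K+ shares were more alike between replicates than Li+ shares. Across the 3266 members Spearman's rho between replicate 1 and replicate 2 was 0.91 for K+ shares, 0.54 for Li+ shares and 0.49 for the log2 ratio, where all points of a replicate share a library and Li+ has the lower depth. Sites with higher K+ shares also had higher Li+ shares, with rho = 0.45 between the means of both replicates. This is partly built in, since each listed site has K+ above Li+. Shares also moved with coverage: canonical sites had a median K+ share of 53.6% at a coverage minimum of 10 and of 45.5% at 50, and the part of the lowest K+ stop count in the tables, 4, in this was not tested. Around the minimum of 20 used here, the 228 sites whose lowest coverage was 20 or 21 had medians of 53.3% and 55.5% in K+ and 5.56% and 5.0% in Li+, and the 231 sites at 18 or 19 had 51.9% and 53.6%, and 5.41% and 5.26%. Sites are not independent replicates, since 1551 members lie within 100 bases of another member and the 3266 members form 2330 such groups.

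**Figure D1:**
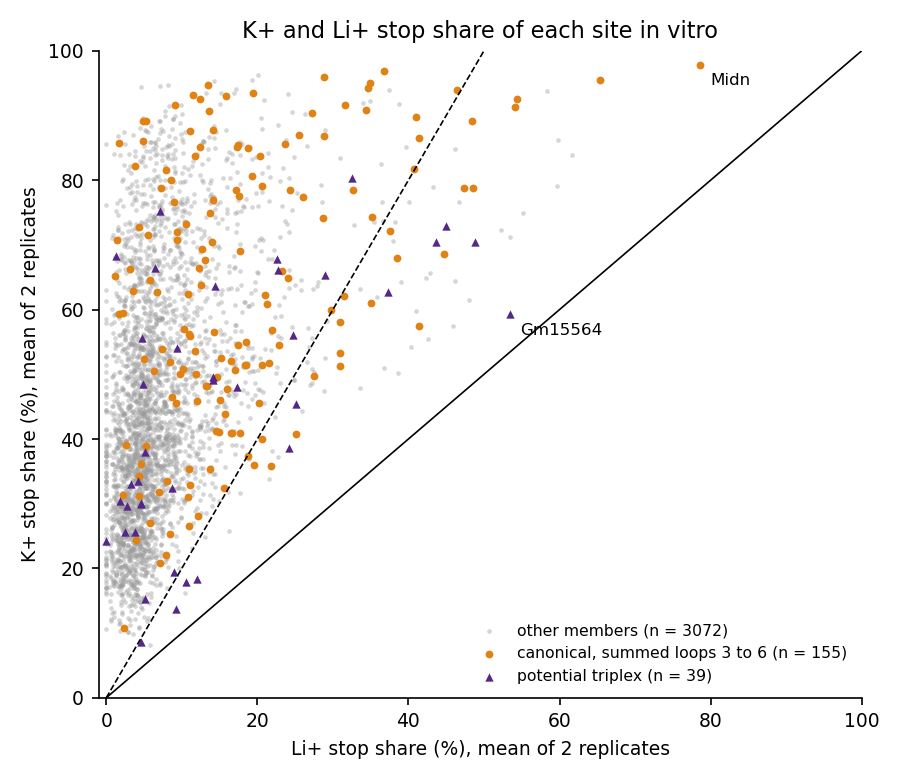
Each point is 1 of the 3266 member sites, with its Li+ stop share on the x axis and its K+ stop share on the y axis, both in percent and as the mean of 2 replicates. The solid line marks equal shares and the dashed line a K+ share of 2 times the Li+ share. Most points crowd at low Li+ shares, canonical motifs with short loops reach far to the right with Midn last, and Gm15564 lies closest to the line of equality among sites of high Li+ share.

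The sites with the largest K+ minus Li+ differences were named class by class, so each class is represented by rule. In the 3′ UTR of Gigyf2, which encodes a translational repressor, the canonical motif shown above stopped 88.6% and 90.7% of reads in K+ and 4.04% and 5.71% in Li+. At a bulged motif in the coding sequence of Mcm3, a subunit of the replicative helicase, the K+ shares were 93.4% and 95.3% and the Li+ shares 1.69% and 7.41%. A bulged coding motif of Mphosph10, a protein of the U3 small nucleolar ribonucleoprotein, had 94.3% and 94.9% in K+ and 4.17% and 10.0% in Li+. At these sites both K+ libraries were high, both Li+ libraries were low and the cations did not overlap, which follows from their choice by this difference. St13, which encodes an Hsp70 co-chaperone, was the most deeply covered of them, with 91.1% of 2076 and 90.3% of 1471 reads in K+ and 7.94% of 340 and 7.61% of 92 reads in Li+, at a two-quartet motif of its 3′ UTR. In the 2 classes without a full quadruplex pattern, Rnf145, a ubiquitin ligase gene, had 80.0% and 80.4% in K+ against 6.85% and 4.08% in Li+ at a potential quadruplex. Ccnt2, a cyclin of the elongation factor P-TEFb, had 74.9% and 75.5% against 8.14% and 6.12% at a potential triplex. A pattern with fewer guanine runs thus did not keep single sites from a large difference between the cations.

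At 77 members no read stopped in Li+ in either replicate. Rab5c, a GTPase of early endosomes, stopped 86.5% and 84.7% of reads in K+ and 0 of 103 and 0 of 26 reads in Li+, which is at least 29.7-fold and 7.34-fold higher in K+ when 3 stops per library are taken as the limit of a count of 0. Septin9, a gene of the septin cytoskeleton, had 75.1% and 77.3% in K+ and 0 of 73 and 0 of 44 in Li+, at least 18.3-fold and 11.3-fold. Plec, the gene of the cytoskeletal linker plectin, had 40.1% and 48.2% in K+ and 0 of 93 and 0 of 68 in Li+, at least 12.4-fold and 10.9-fold. The limits differ with the Li+ depth, so these 3 sites cannot be ordered by them. The naming rule orders sites by a log2 ratio with a pseudocount, which places sites without Li+ stops first, and it also named Lsr, Zfp445, Otx2, Dnajc21, Zc3h4, Chmp1a and Snw1. Of these Dnajc21 had a share of 0.82% in Li+ replicate 1 and the rest had 0 stops in Li+. Their ratios are mostly lower bounds and show no order against measured ones, such as 21.9 and 15.9 at Gigyf2. Their K+ shares ran from 16.9% at Snw1, which encodes a splicing factor, to 65.7% at Otx2, a homeobox factor of early differentiation.

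The motif class, as the authors assigned it, set apart the Li+ shares more than the ratio. Canonical motifs have 4 runs of 3 or more guanines and loops of 1 to 7 bases. Their 531 sites had a median of 50.7% and 51.0% in K+, and of 8.8% and 8.0% in Li+. The 376 long-loop sites had 43.4% and 46.6% in K+ and 5.88% and 5.21% in Li+. The 1352 bulged sites had 43.1% and 44.4% in K+ and 5.71% and 5.0% in Li+. Canonical motifs were thus higher than both in either cation. The 599 two-quartet sites, which need only runs of 2 guanines, had 40.8% and 41.7% in K+ and 5.26% and 4.55% in Li+. The 369 potential quadruplexes, with 40% or more guanine but no full pattern, had the lowest medians, at 34.1% and 36.7% in K+ and 4.66% and 4.31% in Li+. The order of the 4 quadruplex classes with a full pattern was the same in both replicates and in both cations. Neighbours in that order differed by little next to the spread of sites within a class, whose K+ quartiles were 38.7% and 69.4% for canonical and 30.3% and 57.9% for two-quartet motifs.

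The log2 share ratio ran the other way. It was lowest for canonical motifs among the quadruplex classes, with a median of 2.32 and 2.43, against 2.71 and 2.73 for long-loop, 2.71 and 2.79 for bulged, 2.75 and 2.87 for two-quartet motifs and 2.72 and 2.81 for potential quadruplexes. With coverage of 50 or more, canonical motifs stayed the lowest of these, with a median over both replicates of 2.23. The order of the others turned there, with 2.72 for long-loop, 2.66 for bulged, 2.64 for two-quartet motifs and 2.54 for potential quadruplexes. The 39 potential triplexes stood apart in both measures, with K+ medians of 53.6% and 38.6%, Li+ medians of 10.7% and 6.9% and a log2 ratio of 1.61 and 2.12. Their replicates lay far apart, and with coverage of 50 or more their median log2 ratio over both replicates was 0.93 in place of 1.82, so their place among the classes is uncertain. All members had K+ above Li+, but the rule that chose them is not given in the labels or tables. Whether it acted alike on all classes is therefore not known, and no test was made between classes.

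**Figure D2:**
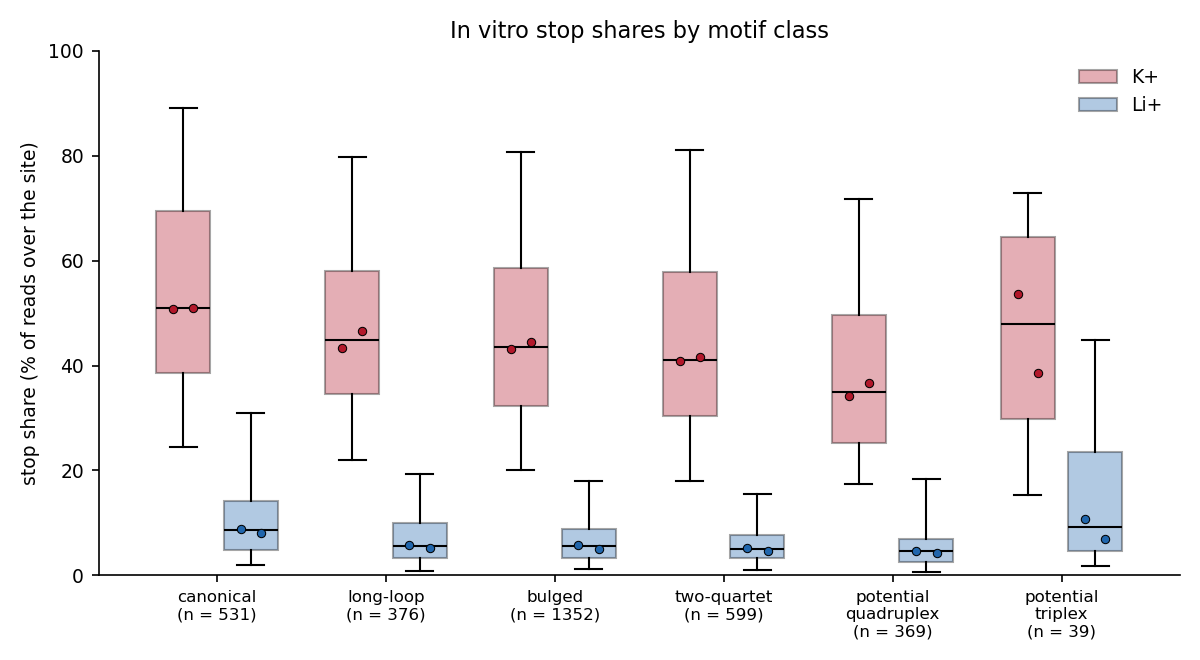
Stop share in percent of the reads over a site by motif class, in K+ and in Li+, with the number of member sites under each class. Boxes show the quartiles and the median of site means over 2 replicates, whiskers the percentiles 5 and 95, and the points the median of replicate 1 (left) and replicate 2 (right). The 2 points lie close together in every class but potential triplex, and the Li+ box of canonical motifs sits above those of the other quadruplex classes.

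By position in the transcript, sites in 3′ UTRs stood highest in K+. The 1683 sites in 3′ UTRs had medians of 46.3% and 47.7% in K+ and 6.31% and 5.71% in Li+, and the 790 coding sites had 39.5% and 40.3% in K+ and 5.0% and 4.76% in Li+. The 322 sites in 5′ UTRs had 40.9% and 42.8% in K+ and 4.72% and 4.76% in Li+. The 146 sites in noncoding transcripts had K+ shares like those of coding sites, 40.3% and 42.1%, and Li+ shares of 6.66% and 6.29%, the highest of the 5 kinds of position. This rank turned with coverage of 50 or more, where the median Li+ share over both replicates was 6.1% in noncoding transcripts and 6.25% in 3′ UTRs. The median log2 ratio of noncoding sites was the lowest, 2.33 and 2.28, against 2.63 and 2.72 in 3′ UTRs, 2.71 and 2.78 in coding sequence and 2.86 and 2.83 in 5′ UTRs. A further 325 sites lay in several kinds of region in different transcripts, with 41.7% and 42.4% in K+ and 5.28% and 4.76% in Li+. Motif class and position are not independent: 387 of the 531 canonical sites lay in 3′ UTRs and 39 in coding sequence.

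A high Li+ share was taken as 10% or more in both replicates. This held for 488 members (14.9%) in 395 gene entries, which form 439 groups of neighbouring motifs. Their Li+ shares had a median of 17.7% and 16.9%, against 5.03% and 4.45% at the other members. Their K+ shares had a median of 59.9% and 60.2%, against 40.4% and 41.6%, and the median ratio of the shares was 2.98 and 3.29 in place of 7.98 and 9.29. Both differences are partly built in, since each listed site has K+ above Li+ and the Li+ share is the denominator of the ratio. The threshold cuts through a continuous range: 82 members lay between 10% and 11% by the lower of their Li+ shares, 88 between 9% and 10%, and the nearest values on either side were 10.0% and 9.97%. Of the 488 sites, 53 had a K+ share under 2 times the Li+ share in both replicates, and 57 of all members did. At the rest of the 488 sites the K+ share was at least 2 times the Li+ share in 1 or both replicates. With the threshold at 5% or 20% in place of 10%, 1295 or 129 members would count as high.

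Bulged motifs made up 35.7% of the high Li+ sites and canonical motifs 32.6%, although there were fewer canonical than bulged members. Of 531 canonical sites, 159 (29.9%) had a high Li+ share, against 63 of 376 long-loop sites (16.8%), 174 of 1352 bulged sites (12.9%), 44 of 599 two-quartet sites (7.35%) and 34 of 369 potential quadruplexes (9.21%). Of the 39 potential triplexes, 14 (35.9%) were high. Canonical motifs and potential triplexes, the 2 classes where high Li+ sites were most frequent, differed in how far K+ added to these sites. A K+ share under 2 times the Li+ share was found at 14 canonical sites (2.64%) but at 10 potential triplexes (25.6%), and at 16 potential quadruplexes (4.34%). In bulged motifs it was found at 7 sites (0.518%) and in long-loop motifs at 2 (0.532%).

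Sites with a high Li+ share made up 18.4% of 3′ UTR sites (310), 9.11% of coding sites (72), 9.01% of 5′ UTR sites (29) and 24.7% of noncoding sites (36). Among canonical motifs alone 3′ UTRs differed more widely from coding sequence and 5′ UTRs. High Li+ shares were found at 137 of 387 in 3′ UTRs (35.4%), 3 of 39 in coding sequence (7.69%) and 7 of 54 in 5′ UTRs. Canonical noncoding sites, with 5 of 21 (23.8%), lay below those in 3′ UTRs, in contrast to the order over all classes. Loop lengths also differed between these regions. Of the canonical coding sites, 0 had loops that summed to 3 or 4 bases and 2 had loops of 5 or 6, against 36 and 91 in 3′ UTRs. The part of loop length in the difference between regions was not tested.

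Among the 531 canonical motifs, shares in both cations fell with the length of the loops. The 3 loops were summed for the 4 runs of 3 guanines nearest the stop, and a spare guanine of a longer run could count as a loop base. The 47 sites with a sum of 3 or 4 bases had medians of 67.5% and 72.7% in K+ and of 20.5% and 15.6% in Li+. The 108 sites with 5 or 6 bases had 59.5% and 63.5% in K+ and 14.7% and 13.3% in Li+. The 118 sites with 7 or 8 bases had 50.1% and 51.3% in K+ and 8.14% and 8.19% in Li+. Each step lay below the one before in all 4 libraries. From there the medians changed less, and the 94 sites with 13 to 21 bases had 42.6% and 44.9% in K+ and 6.09% and 5.6% in Li+. The share of sites with high Li+ was 70.2% at 3 or 4 bases, 53.7% at 5 or 6, 23.7% at 7 or 8, 18.2% at 9 or 10, 17.1% at 11 or 12 and 11.7% at 13 to 21. The median log2 share ratio was 1.24 and 1.87 at 3 or 4 bases and 2.7 and 2.7 at 13 to 21. As a ratio of shares, short loops thus went with more stops in K+ and with proportionally still more in Li+. K+ shares have a ceiling, which limits this ratio where they are high. The log2 odds were not compared between the bins, so the order may depend on the scale.

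**Figure D3:**
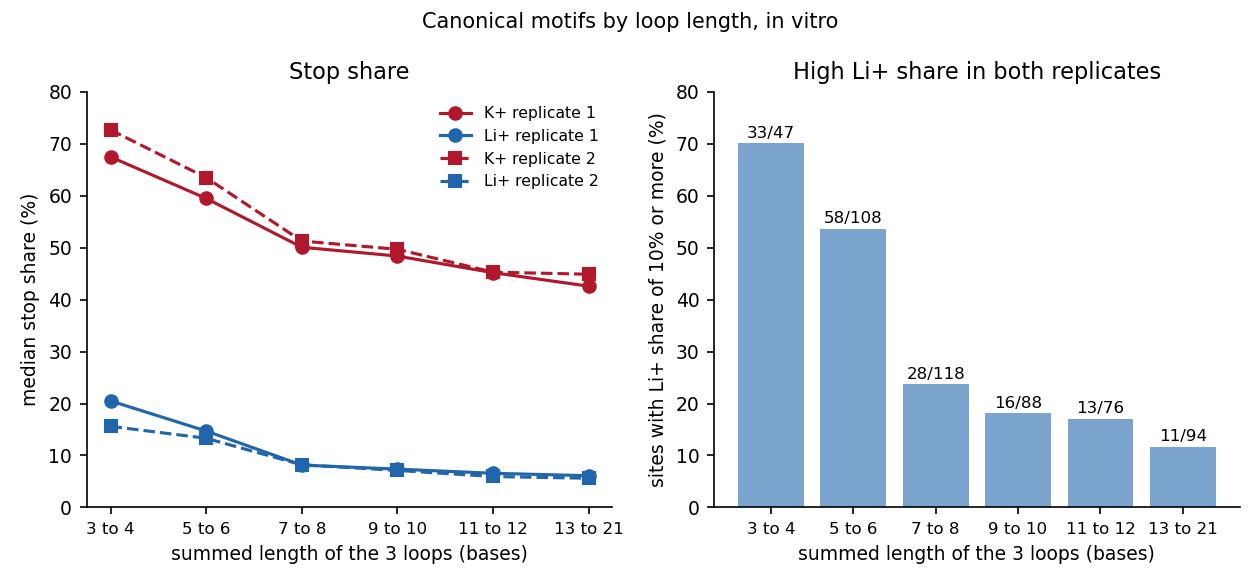
Left, median stop share in percent of canonical motifs by the summed length of their 3 loops in bases, for each K+ and Li+ library. Right, percentage of the sites in each bin with a Li+ share of 10% or more in both replicates, with the counts above the bars. Both cations decline from left to right, and the share of high Li+ sites falls from 33 of 47 to 11 of 94.

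The trend with loop length was seen with 1 site per group of neighbouring motifs, where 24 of 35 sites with 3 or 4 bases (68.6%) and 9 of 66 with 13 to 21 bases (13.6%) had a high Li+ share. Within 3′ UTRs the counts were 26 of 36 (72.2%) and 6 of 54 (11.1%). The bins were set after the values were seen, and no test was made. Other features of the motif, also looked at after the values were seen, went with smaller differences. A high Li+ share was found at 25.8% of the 485 sites whose last stop base was guanine, against 14.6% with adenine, 12.9% with thymine and 10.4% with cytosine there. It was found at 25.7% of the 237 sites with a run of 7 or more guanines and at 10.3% of the 660 whose longest run had 3. The 233 sites whose longest run had 2 were at 16.3%, so the share did not rise steadily with run length. Of the 82 motifs that span a splice junction, 4 (4.88%) had one. On chromosome X it was 18 of 106 sites (17.0%), next to 14.9% elsewhere.

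The highest Li+ shares of all were found in Midn, which encodes midnolin, a protein that brings nuclear proteins to the proteasome. At its 3′ UTR motif with 3 loops of 1 base, 98.0% of 591 and 97.7% of 873 reads stopped in K+. In Li+ it was 78.8% of 496 reads (exact Clopper-Pearson 95% interval 75.0% to 82.3%) and 78.5% of 149 (71.1% to 84.8%). The K+ libraries were near the ceiling of the measure, the Li+ libraries agreed within counting error, and the ratio was 1.24 in both. On the log2 odds, which have no such ceiling, K+ lay 3.58 ± 0.52 (SE) above Li+ at Midn. The median over all members was 3.6, so the low ratio does not mean a small difference on that scale. The exact intervals cover counting error only, since reads without molecular identifiers need not be separate molecules.

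Xist, the noncoding RNA that coats the inactive X chromosome, followed. At chrX:103460423 it stopped 93.9% and 97.2% of reads in K+ and 63.3% and 67.5% in Li+. The stop lies within the last 100 bases of the gene as annotated by RefSeq, which places Xist from 103460373 to 103483233 on the minus strand, in the repeat of 3 guanines and a thymine printed above. At the neighbouring stop chrX:103460407-103460408, classed as long-loop, Xist had 56.3% and 54.6% in K+ and 42.4% and 42.8% in Li+ with 3440, 4994, 2244 and 1126 reads. Both stops of this array were thus high in Li+. Their log2 odds differences were 3.68 ± 0.51 (SE) at the first stop and 0.75 ± 0.19 at the second. Tsix is transcribed across Xist on the other strand, and whether reads were counted by strand is not stated in the labels or tables.

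The other canonical motifs among the 15 highest also had short loops, with 3 loops of 1 base at Tecr and Hnrnpa0. Tecr, a reductase of fatty acid elongation, had 90.9% and 91.8% in K+ and 51.7% and 56.5% in Li+, on 22 to 98 reads per library. Hnrnpa0, an RNA-binding protein, had 78.0% and 79.7% in K+ and 46.4% and 48.4% in Li+. Smg5, a factor of nonsense-mediated decay, had 89.8% and 88.5% in K+ and 46.9% and 50.0% in Li+, with loops of 5 bases in sum. At the 5 canonical sites the replicates did not differ beyond counting error in either cation (Fisher's exact test, adjusted p of 0.427 or more). Their K+ and Li+ values did not overlap, as was the case at 3262 of the 3266 members. Nap1l4, a nucleosome assembly protein, is classed as bulged, had 59.0% and 64.0% in K+ and 47.2% and 48.9% in Li+, and carries a stretch of 3 runs with single-thymine loops.

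The remaining 9 of these 15 sites had other kinds of motif. Ankrd11, a chromatin regulator, had 84.6% and 83.2% in K+ and 59.7% and 63.6% in Li+, Nop53, a ribosome assembly factor, 80.0% and 78.1% against 58.9% and 60.5%. Phf10, a subunit of the PBAF chromatin remodeller, had 86.3% and 86.0% in K+ and 65.9% and 53.8% in Li+, at a two-quartet motif of its coding sequence. Psmd8, a subunit of the proteasome cap, had 69.6% and 71.3% against 50.7% and 46.8%, and the stretch printed above holds 1 guanine run of 3. Daxx, a chaperone of histone H3.3, had 92.5% and 95.0% in K+ and 64.6% and 52.0% in Li+, on 65 and 25 Li+ reads. Pea15a, a death effector domain protein, had 71.5% and 78.2% in K+ and 47.0% and 63.3% in Li+, where the Li+ replicates did not differ beyond counting error (Fisher's exact test, adjusted p = 0.436). Igf2bp1, an mRNA-binding protein, had 77.7% and 64.8% in K+ and 54.5% and 52.3% in Li+, and its K+ replicates did differ (adjusted p = 0.000577). Next to the stop these sites have fewer or shorter guanine runs than the canonical ones, and the Li+ shares of the 2 kinds overlapped.

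**Figure D4:**
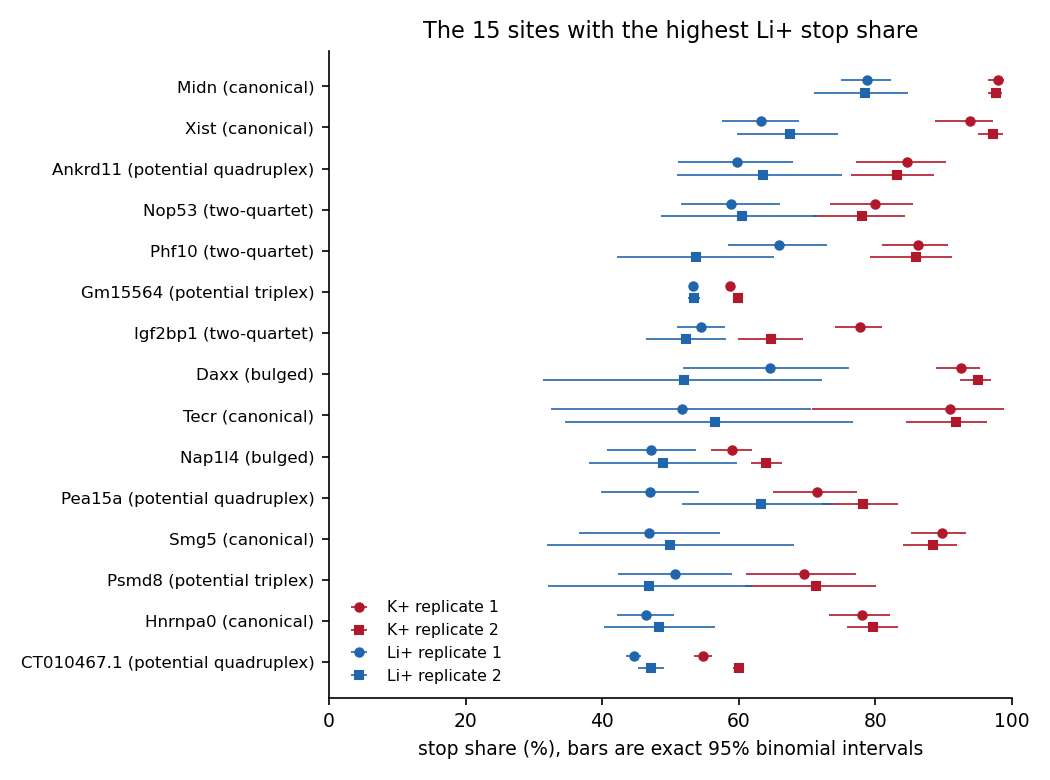
Stop share in percent at the 15 sites with the highest Li+ share, by the lower of both replicates, at most 1 per gene, with the motif class in brackets. Each site has 4 values, K+ in red and Li+ in blue, with exact 95% binomial intervals as bars. K+ lies to the right of Li+ at each site, by the least at Gm15564 and CT010467.1.

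At Gm15564, listed as noncoding, K+ and Li+ were closest by ratio. Its depth was far above the median coverage of a member, and the origin of its reads was not tested. The share was 58.7% of 27032 and 59.9% of 27987 reads in K+, and 53.3% of 36323 and 53.5% of 11765 reads in Li+. The depth leaves little counting error, and the ratio of 1.1 and 1.12 is at the lower edge of what the list holds. It was among the members not called, with a log2 odds difference of 0.34 ± 0.19 (SE; limma, adjusted p = 0.09). At CT010467.1, whose position is that of the 18S ribosomal RNA copy Rn18s-rs5 in the RefSeq table, the stop at chr17:39847490-39847492 had 54.8% and 60.0% in K+ and 44.6% and 47.2% in Li+. The pair Cmc4 and Mtcp1, 2 genes that share a 5′ end, had 53.6% and 46.8% in K+ and 41.1% and 36.1% in Li+. Other sites of CT010467.1 differed in level: at chr17:39847999 it had 16.6% and 19.3% in K+ and 10.7% and 10.3% in Li+, and at chr17:39846569-39846570 it had 8.11% and 11.5% in K+ and 4.03% and 3.05% in Li+. Ribosomal RNA exists in many near-identical copies, and the rule for reads that match several copies is not stated in the labels or tables, which leaves these values uncertain.

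Among the genes of the fixed lists, each described at its most deeply read site, pluripotency factors varied widely. The list held 24 members in 8 genes, of which 4 (16.7%) had a high Li+ share. Lin28a, which blocks maturation of the let-7 microRNA, had 89.0% of 3277 and 91.8% of 3497 reads in K+ at the short-loop motif shown above, and 23.8% and 30.8% in Li+. Pou5f1, which encodes Oct4, had 63.6% and 65.1% in K+ but 38.9% and 53.3% in Li+, at a potential quadruplex at the start of its coding sequence. Its Li+ replicates differed beyond counting error (Fisher's exact test, adjusted p = 4.76e-05). Mybl2, a cell cycle transcription factor, had 59.4% and 57.0% in K+ and 23.6% and 34.9% in Li+. Sox2 had lower shares, 24.7% and 26.1% in K+ and 9.12% and 6.01% in Li+, at a site shared with Sox2ot. Zfp57, which protects imprints, had 37.5% and 33.8% in K+ and 0 of 46 and 0 of 34 reads in Li+, which allows shares of up to 7.71% and 10.3% (exact Clopper-Pearson 95% interval). Among the 8 sites named for this list, the ratio of the shares was lowest at Pou5f1, 1.63 and 1.22, and among those with Li+ stops in both replicates it reached 5.81 and 7.89 at Trim71, an RNA-binding ubiquitin ligase. Where Li+ stops were 0, as at Zfp57, the ratio has no upper value.

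Nuclear noncoding RNAs held 55 members in 6 genes, of which 15 (27.3%) had a high Li+ share. Malat1, an RNA of nuclear speckles, had 41.5% and 40.2% in K+ and 18.9% and 14.3% in Li+ at its most deeply read motif, which has loops of 4 bases in sum. Neat1, the scaffold of paraspeckles, had 67.2% and 75.8% in K+ and 5.91% and 6.98% in Li+. H19, the imprinted RNA next to Igf2, had 40.5% and 43.3% in K+ and 6.88% and 7.61% in Li+, and Mirg, a microRNA host, 46.3% and 48.3% against 7.42% and 10.4%. Within this list Xist and Malat1 were high in Li+, while the Li+ shares of Neat1 and H19 lay between the quartiles of all members, and that of Mirg did so in replicate 1 alone. Peg10, which descends from a retrotransposon, was read most deeply among the imprinted genes and had 72.7% of 14889 and 73.8% of 13574 reads in K+ and 17.8% and 16.9% in Li+. The list of imprinted genes held 26 members in 4 genes, H19 among them, and 3 (11.5%) had a high Li+ share.

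Genes of rG4-binding proteins and helicases held 110 members in 15 genes, and 12 (10.9%) had a high Li+ share. Ewsr1, an RNA-binding protein, had 73.9% and 61.8% in K+ and 16.4% and 11.6% in Li+ at a bulged coding motif. Taf15, also an RNA-binding protein, had 34.1% and 36.7% in K+ and 11.4% and 10.4% in Li+ in its 3′ UTR. Ddx5, a helicase, had 55.1% and 59.7% in K+ and 4.66% and 3.31% in Li+. Hnrnpa2b1, a ribonucleoprotein, had 14.3% and 17.5% in K+ and 4.38% and 3.8% in Li+ at a two-quartet motif. Median K+ shares of the list were 33.4% and 34.7%, below the 43.0% and 44.8% of all members. Polycomb genes held 11 members in 6 genes with medians of 46.2% and 42.1% in K+ and 4.55% and 2.86% in Li+, and 0 of the 11 had a high Li+ share. Jarid2, a cofactor of PRC2, had 51.1% and 52.2% in K+ and 6.05% and 1.49% in Li+. Stress and immediate early genes held 29 members in 6 genes and 4 (13.8%) were high in Li+. Ddit4, an inhibitor of mTORC1, had 28.4% and 30.2% in K+ and 13.3% and 10.7% in Li+, and Jun 32.6% and 33.2% against 13.7% and 8.4%. These shares of high Li+ sites are read next to 14.9% in all members, with no test.

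The 2 replicates were compared at each site with Fisher's exact test, which sets these libraries against each other and not conditions. In K+ 263 members (8.05% of 3266) differed at an adjusted p under 0.05, 103 higher in replicate 1 and 160 in replicate 2. In Li+ 33 members differed (1.01%), 25 higher in replicate 1 and 8 in replicate 2. The lower Li+ depth gives that test less reach, so the counts do not compare the cations. At H19, the stop at chr7:142578090-142578091 in a canonical motif had 19.7% of 2461 and 30.2% of 7607 reads in K+ and 1.98% of 4487 and 7.54% of 2548 in Li+. Both cations were higher in replicate 2 there (adjusted p = 1.65e-22 in K+). Malat1 at chr19:5799376-5799377 had like K+ shares, 91.5% and 93.1%, but 41.8% and 28.0% in Li+ (adjusted p = 5.22e-10). Yap1, the coactivator of the Hippo pathway, had 54.1% and 53.6% in K+ and 31.3% and 10.8% in Li+ (adjusted p = 2.81e-06). Snhg1, a host of small nucleolar RNAs, differed in K+ instead, with 24.7% and 15.3% (adjusted p = 6.91e-12), and had 9.54% and 9.66% in Li+. At CT010467.1 the most deeply read stops also differed: at chr17:39846627 the K+ share was 62.7% of 166920 and 45.7% of 122284 reads, and the Li+ share 39.2% and 41.6%. At such depth a small shift passes, but this one took the ratio from 1.6 to 1.1.

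The in-cell libraries, which take their own K+ and Li+ reads from DMS-treated cells, were used to see whether sites with high Li+ shares in vitro also stopped more often there. Among members with 20 or more reads in a library, which left 178 to 481 sites with a high Li+ share in vitro and 1024 to 2764 others in the Li+ libraries, the median Li+ share at sites with high Li+ in vitro was 5.95% and 7.34% in day 0 libraries, 4.44% and 3.0% in day 3 libraries and 6.9% and 7.81% in day 7 libraries. At the other members it was 2.56% and 2.94%, 2.33% and 1.61%, and 2.83% and 3.12%. The sites with high Li+ in vitro were higher in 6 of 6 Li+ libraries, each library being compared with itself. The K+ libraries showed the same order, from 4.44% and 3.57% on day 0 to 11.9% and 7.41% on day 7 against 2.27% and 1.69%, and 3.85% and 2.58%. Within the sites with high Li+ in vitro the K+ median exceeded the Li+ median in both day 3 samples and in day 7 replicate 1, and lay below it in the other 3 samples.

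**Figure D5:**
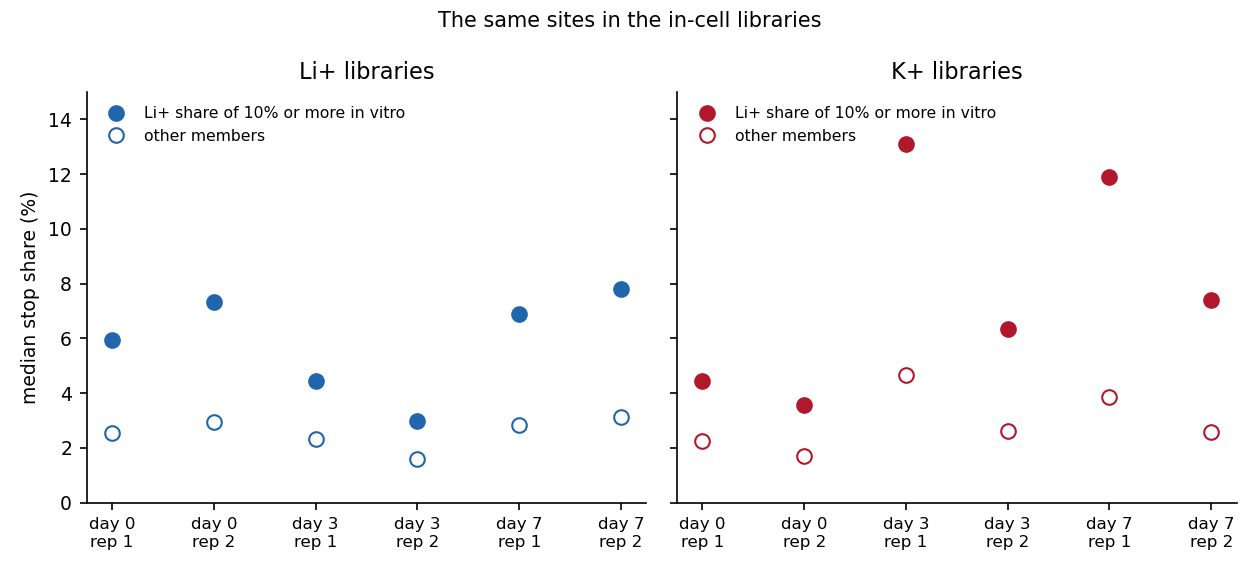
Median stop share in percent in each in-cell Li+ library (left) and K+ library (right) on day 0, day 3 and day 7, at sites with a Li+ share of 10% or more in both in vitro replicates (filled) and at the other members (open), among sites with 20 or more reads in that library. The filled point lies above the open one in each of the 12 libraries.

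The 57 members with a K+ share under 2 times the Li+ share in vitro were higher still in cells, with medians from 7.28% to 14.9% in the 6 Li+ libraries, on 29 to 55 sites. Canonical motifs with loops of 3 or 4 bases ran from 2.5% to 9.72% in those libraries, and those with loops of 13 to 21 bases from 2.25% to 4.28%. In 1 fit over the 12 in-cell libraries, limma called 0 of 847 sites with 20 or more reads in each of them higher in K+ and 0 lower (0.0% in both directions), and 35 had an unadjusted p under 0.05. With day 7 fitted alone 0 of 3045 sites passed, and 121 had an unadjusted p under 0.05. In simulated data for the fit over 12 libraries at 847 sites, 14.9% of 2-fold, 65.7% of 4-fold and 98.5% of 16-fold changes of the odds were recovered, and the day 7 fit was not simulated. The K+ over Li+ difference that selected the sites in vitro was therefore not detected at single sites in cells, while the order of Li+ shares between the 2 sets of sites was seen in each library.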

How the data were processed

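Members and gene lists were chosen with earlier results of these data known. Per the submitters' processing notes, reads were processed with cutadapt, STAR and SAMtools (versions not stated) on GRCm38.p6 and mm10. In the sources used here, alignment settings and strand use are not given. Per the file headers, the authors' deposited tables hold whole-number counts of coverage and stops per site, in K+ and Li+, without normalisation or other scaling. The 2 Xist sites without a value in day 0 replicate 1 were read as 0.

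Shares and their log2 ratio (0.5 stops and 1 read added) were computed per replicate. Log2 odds with a pseudocount of 0.5 were fitted with limma 3.58.1 in R 4.3.3, weighted by a beta-binomial variance. Replicates were compared with Fisher's exact test, two-sided. Both used Benjamini-Hochberg adjustment over all tested sites at 0.05. The fit was tested on simulated data. In vitro, at 3266 sites, it recovered 1.49% of 2-fold, 16.4% of 4-fold and 81.8% of 16-fold changes of the odds. There were 0 false calls among the 3066 unchanged sites. Most simulated sites were unchanged, while nearly all sites differed in the data, so these rates do not carry over to the in vitro calls. Separate cultures are not stated for the replicates, and p-values reflect only the spread among these samples, which may be technical.

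Sites were named by a rule: the 2 largest K+ minus Li+ differences per class, the 15 highest Li+ shares, the 10 largest and 5 smallest ratios, the most deeply read site of each listed gene, and the largest replicate differences. The result for 1 listed gene is not reported here. Of 1676 gene symbols, 1635 were in the RefSeq table.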

Additional observations from a re-analysis of the deposited data

How the results depend on the processing

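In vitro, each median log2 share ratio stayed above 0 and each call had K+ above Li+ under the alternatives run. With coverage of 50 or more, the rank of noncoding and 3′ UTR sites by Li+ share turned. So did the order of long-loop, bulged and two-quartet motifs and potential quadruplexes by share ratio. With coverage of 50 or more, 1453 of 1458 sites were called in place of 3248 of 3266, since fewer sites were tested, and the other fits called 2320 to 4651. The numbers of the replicates could pair the K+ and Li+ libraries of a table. With the replicate block 3263 sites were called in vitro and 0 in cells, and the K+ and Li+ deviations of the same replicate correlated across sites at 0.13, which with 2 pairs does not settle a pairing. Leaving out a replicate in vitro leaves no residual degrees of freedom, so calls were not recomputed. In cells, leaving out each sample in turn gave 0 to 1 calls.

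The median log2 share ratio over all members was 2.84 with coverage of 10 or more, 2.58 with 50 or more, 2.85 with 1 site per group of neighbouring motifs, 2.93 with a smaller pseudocount, and 2.67 to 2.73 without 1 replicate. By class, coverage of 10 or more gave 2.57 for canonical, 2.89 for long-loop and 2.94 for potential quadruplex sites. Coverage of 50 or more gave 2.23 for canonical, 2.72 for long-loop, 2.66 for bulged, 2.64 for two-quartet, 2.54 for potential quadruplex and 0.93 for potential triplex sites. With 1 site per group it was 2.89 for long-loop, 2.94 for bulged and 2.93 for potential quadruplex sites. Without 1 replicate the ranges were 2.32 to 2.43, 2.71 to 2.73, 2.71 to 2.79, 2.75 to 2.87 and 2.72 to 2.81 for canonical, long-loop, bulged, two-quartet and potential quadruplex sites.

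By position, coverage of 10 or more gave 2.8 in 3′ UTRs, 2.99 in 5′ UTRs, 2.6 in noncoding transcripts and 2.93 in several regions. Coverage of 50 or more gave 2.57 in 3′ UTRs, 2.63 in coding sequence, 2.65 in 5′ UTRs, 2.27 in noncoding transcripts and 2.57 in several regions. With 1 site per group it was 2.82, 2.87, 3.01, 2.53 and 2.92 in the same order. Without 1 replicate the ranges were 2.63 to 2.72, 2.71 to 2.78, 2.83 to 2.86, 2.28 to 2.33 and 2.73 to 2.75. The causes were not tested.

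Sites with a high Li+ share numbered 1295 at a threshold of 5%, 129 at 20%, 250 with coverage of 50 or more, and 769 to 798 where 1 replicate alone had to pass. Canonical sites with loops of 13 to 21 bases had a median Li+ share of 6.41% with coverage of 50 or more, and 5.6% to 6.09% without 1 replicate, which was chosen after seeing the data. Among named sites, of 376 refits of the log2 odds 364 stayed on their side of the threshold, 11 lost the call and 1 gained it, with no change of sign. The Li+ depth, with a median of 94 and 45 reads, limits each ratio.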
